A study of Mus musculus with 9 samples.

Results

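The mitochondrial genome of the mouse is represented in the count table by 37 rows of 53379, chosen as all rows whose gene name begins with mt-. They hold the 13 protein genes, 2 ribosomal RNA genes and 22 tRNA genes of that genome. By the GENCODE M21 annotation of mm10, 28 of these genes lie on the plus strand and 9 on the minus strand, the latter being mt-Nd6 and the tRNA genes mt-Tq, mt-Ta, mt-Tn, mt-Tc, mt-Ty, mt-Ts1, mt-Te and mt-Tp. The libraries came from MOVAS cells, an immortalised line of vascular smooth muscle from the aorta of a C57BL/6 mouse, grown in every group in serum-containing medium with geneticin. There were 3 groups of 3 libraries collected at 24 h: untreated cells (Ctrl), cells given 50 mM DON, and cells given 50 mM DON with 2 mM glutamate (DONglu), doses as the labels state them. DON is a glutamine analogue that blocks enzymes using glutamine, and glutamate is what glutaminase makes from glutamine. All groups are 1 cell line, and the labels do not say whether replicates were separate cultures, so p-values here rest on the variation among these 9 libraries, part or all of which may be technical.

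Mitochondrial DNA is transcribed from both strands into long precursor RNAs. The tRNAs punctuate these precursors, and their excision frees the messenger and ribosomal RNAs. One strand of the circle encodes nearly all products, while RNA from the other yields mt-Nd6, a complex I subunit, and a small set of tRNAs. The rest of that second RNA is antisense to genes, and in healthy cells the helicase Supv3l1 and the nuclease Pnpt1 degrade it.

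In this table the counts are read as RNA of the strand opposite to the named gene. That reading is inferred from the values, since the library kit and the strand setting of the counting are not given in the sources used here, and the share of reads on the wrong strand was not measured. It rests on genes such as mt-Co1, mt-Co2, mt-Rnr1 and mt-Rnr2, whose RNAs are among the most abundant in any cell. The mt-Co2 gene and part of mt-Co1 have a near-identical nuclear copy, described below, so their reads could be assigned to either place. How RNA was selected for the libraries is not known, which limits what low ribosomal RNA rows can show. The mt-Rnr2 row held 12.2 ± 4.88 CPM per kilobase (SD over 9 libraries), against 13650 ± 2230 for the row of the protein gene mt-Nd6. CPM scales each library to a common total, the raw total where levels are given per kilobase of row length and the TMM-scaled total where single libraries are compared. Under this reading the plus-strand rows hold antisense RNA, made from the template that also gives mt-Nd6, and the minus-strand rows hold RNA of the strand that carries most genes. The ordinary sense RNA of these genes would then enter these rows only through reads on the wrong strand. How much of a row's counts such reads supply was not tested, so the changes below cannot be assigned to antisense RNA alone.

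The tRNA sequences below are those of the minus-strand rows with the 3 highest levels among tRNAs, and of the 2 plus-strand tRNA rows that were called changed. Each is written 5′ to 3′ on its gene's own strand with the anticodon in capitals. The anticodon triplets were given beforehand. Each was placed as the middle of the 7-base loop whose stem of 5 positions had the most pairs, which for mt-Tt was 4.
mt-Ts1, chrM:6870-6938, minus strand: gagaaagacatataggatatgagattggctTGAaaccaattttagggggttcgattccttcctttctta
mt-Te, chrM:14071-14139, minus strand: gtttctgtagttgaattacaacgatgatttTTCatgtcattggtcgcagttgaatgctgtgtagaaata
mt-Tp, chrM:15356-15422, minus strand: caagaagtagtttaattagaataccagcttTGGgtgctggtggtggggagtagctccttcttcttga
mt-Tt, chrM:15289-15355, plus strand: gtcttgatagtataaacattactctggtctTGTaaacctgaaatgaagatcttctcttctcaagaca
mt-Ti, chrM:3706-3774, plus strand: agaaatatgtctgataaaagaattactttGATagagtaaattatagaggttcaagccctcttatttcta

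The genes mt-Tt and mt-Tp lie side by side on opposite strands, so their rows read the 2 strands of adjoining DNA. The first 30 coding bases of 3 protein genes, with the start codon in capitals, show how the strands differ in base content.
mt-Nd6, chrM:14041-14070, minus strand: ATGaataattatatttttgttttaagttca
mt-Cytb, chrM:14145-14174, plus strand: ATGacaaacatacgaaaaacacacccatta
mt-Nd2, chrM:3914-3943, plus strand: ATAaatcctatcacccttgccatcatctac

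Read on its own strand, each of the 9 minus-strand genes had more G than C, and 3 of the 28 plus-strand genes did. The mt-Nd6 gene was 28.1% G and 6.0% C, while G ranged from 5.9% to 21.3% over the plus-strand genes. The antisense RNA read by the plus-strand rows is therefore richer in G than in C for most genes. Any effect of base content on the counts was not tested.

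Library totals ran from 1132822 to 1342286 counts, and the mitochondrial rows took between 1.9% and 2.39% of them. Rows named for markers of endothelium, leukocytes, epithelium and fibroblasts had at most 11 counts in sum per list in any library. Of these markers only Pdgfra, a fibroblast marker, at 3 to 22 counts, and Cd3e, at 0, had a row reading their opposite strand. Rows named for smooth muscle markers summed to 102 to 162 counts, and rows reading the opposite strand of Des, Smtn and Tagln summed to 829 to 1420, so the smooth muscle label was checked on these 3 genes only. In a bulk library, more of an RNA in each cell and more cells holding it cannot be told apart.

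The 9 minus-strand rows held 59.7% ± 5.67 of all mitochondrial counts (SD, n = 9 libraries, range 51% to 67.2%). The row of mt-Nd6 alone supplied 56.3% of the minus-strand counts. On the plus strand, the row of mt-Nd5, a complex I subunit, supplied 50.1% and that of mt-Nd4, also of complex I, 17.4%. Raw counts, not scaled for row length, were thus concentrated in 1 stretch of the circle, since mt-Nd4, mt-Nd5 and mt-Nd6 are neighbours. The rows just before mt-Nd4 lie in a stretch with a near-identical nuclear copy, described below, so their low counts are uncertain.

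Among rows of protein genes, mt-Nd6 had the highest level per length, at 13650 ± 2230 CPM per kilobase. The mt-Nd5 row followed at 2357 ± 557 and the mt-Nd4 row at 1075 ± 187, and each of these steps exceeded the spread over libraries. Next came mt-Nd2 of complex I at 414 ± 108 and mt-Cytb, the cytochrome b of complex III, at 259 ± 145, whose spreads overlapped. The rows of mt-Nd1 at 138 ± 59.8 and of mt-Co1, the core subunit of cytochrome c oxidase, at 131 ± 47.2 were not separated from each other.

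Among tRNA rows the minus strand held the highest levels. The row of mt-Ts1, a serine tRNA, reached 23090 ± 6180 CPM per kilobase and that of mt-Te, the glutamate tRNA, 16370 ± 3160, and these spreads overlapped. The proline tRNA row mt-Tp stood at 9355 ± 764, and the other 5 minus-strand tRNA rows lay between 5601 and 6880. On the plus strand, mt-Ts2, mt-Th and mt-Tl2, which form a run between mt-Nd4 and mt-Nd5, had 7883, 7612 and 6577. The remaining plus-strand tRNA rows ranged from 1552 for mt-Tt down to 0 for mt-Tk, which had no count in any library. A short row also catches reads that start outside it, so levels of tRNA rows and protein rows are not set against each other.

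**Figure D1:**
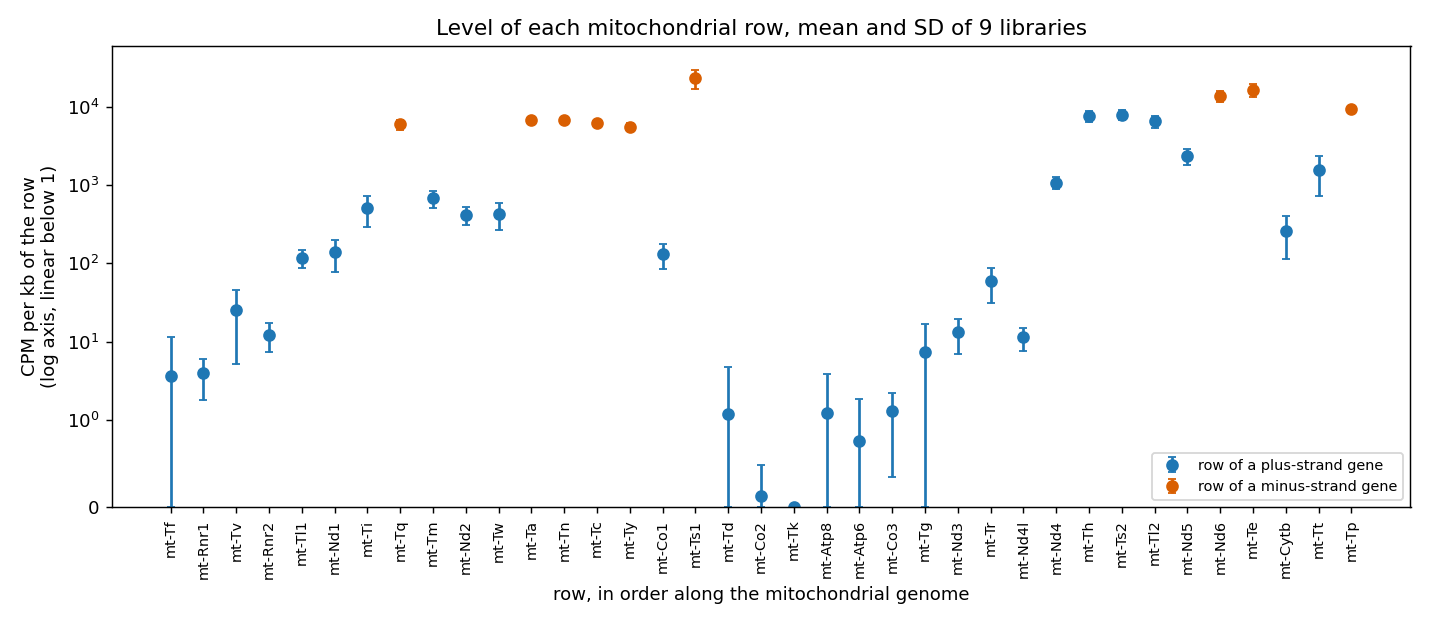
Level of each of the 37 mitochondrial rows in the order of the genome, in CPM per kilobase of row length on a log axis that is linear below 1, with points at the mean and bars for the SD of 9 libraries, blue for plus-strand and orange for minus-strand genes. Means of the minus-strand rows run from 5601 to 23090, and those of the plus-strand rows from 0 to 7883.

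The high minus-strand rows of mt-Ts1 and mt-Nd6 lie just past a plus-strand messenger. The mt-Ts1 gene overlaps the end of mt-Co1 by 3 bp, and mt-Nd6 overlaps the end of mt-Nd5 by 14 bp. As background, the messengers of mt-Co1 and mt-Nd5 are known to continue past their coding ends into the sequence opposite these genes. Some neighbouring tRNA rows had near-equal counts, such as mt-Ta, mt-Tn, mt-Tc and mt-Ty, or mt-Th, mt-Ts2 and mt-Tl2. There 1 read may be counted in more than 1 row, and such rows may not be independent measurements. Over the whole table, 592 rows lie wholly inside another row of the same strand. Of these, 159 had a count above 0 and 10 had a mean of at least 10 counts. These shares were not compared with those over all rows.

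Of the 37 rows, 24 passed the filter on low counts and were tested, 15 plus-strand and all 9 minus-strand. The other 13 are all plus-strand and were low in all 3 groups, with at most 12 counts in any library. Among them are mt-Co2 and mt-Co3 of cytochrome c oxidase, mt-Atp6 and mt-Atp8 of ATP synthase, and mt-Rnr1. Of the 13, 10 lie wholly within the stretch from 6390 to 11042 of the mitochondrial genome, which has a near-identical copy on chromosome 1 annotated as 7 pseudogenes, at least 99.7% identical over the matched bases. The pseudogene rows Gm28438, Gm28437 and Gm10222 held 769 to 1003, 328 to 667 and 138 to 251 counts. Reads from this stretch could be assigned to either place, and how they were treated is not given in the sources used here, so values of rows inside it, mt-Ts1 included, and of mt-Nd4 and mt-Co1, which it covers in part, are uncertain. The 4 pseudogene rows of the copy that passed the filter were not called in any comparison by edgeR (adjusted p of 0.332 or more).

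Summed over both strands, mitochondrial rows took 1.9% to 2.12% of counts in Ctrl and 2.16% to 2.31% in DONglu, without overlap. The DON range, 1.95% to 2.39%, overlapped both, and no test was made. Summed by strand, the rows overlapped between groups. Plus-strand rows took 0.812% ± 0.108 of counts in Ctrl, 0.754% ± 0.0972 in DON and 0.998% ± 0.178 in DONglu (SD, n = 3 each). Minus-strand rows took 1.2% ± 0.0193, 1.34% ± 0.22 and 1.24% ± 0.108. The log2 ratio of minus-strand to plus-strand counts was 0.57 ± 0.19 in Ctrl, 0.83 ± 0.29 in DON and 0.33 ± 0.39 in DONglu. The DONglu libraries spread the most, from 0.06 to 0.78, and this range covers every Ctrl value and the lowest DON value. The sums follow the most abundant rows, mt-Nd6 and mt-Nd5, and without mt-Nd6 the ratios were -0.59, -0.36 and -0.91.

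**Figure D2:**
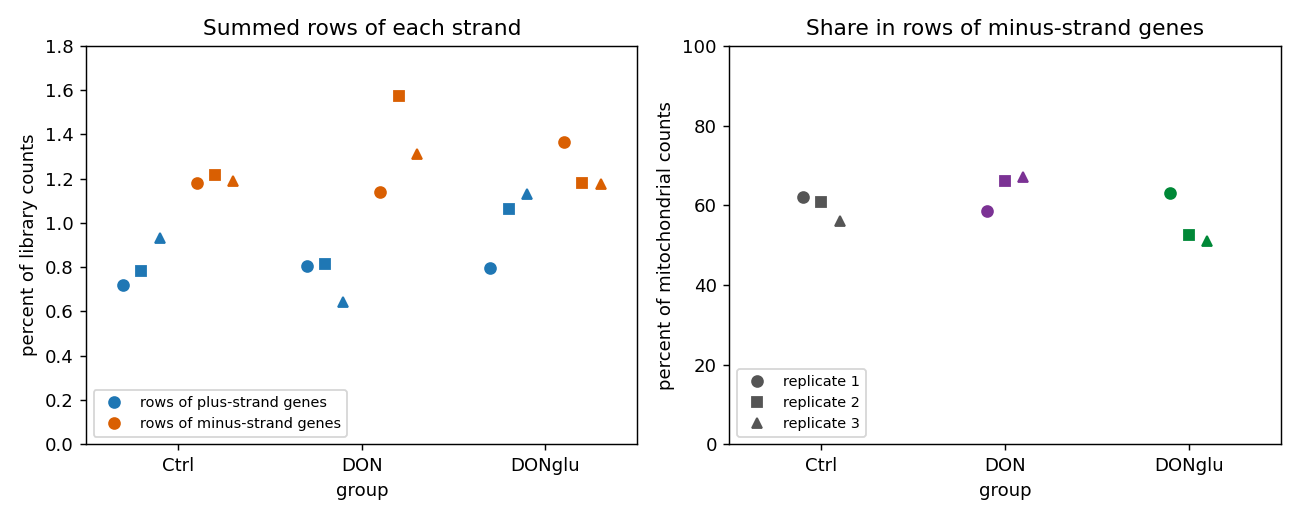
Left, counts summed over plus-strand rows (blue) and minus-strand rows (orange) as a percent of each library's counts. Right, minus-strand counts as a percent of mitochondrial counts, with 1 point per library in both panels, whose values run from 51 to 67.2 on the right and overlap between the groups.

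The first comparison asks what DON did to these RNAs. In DON against Ctrl, the plus-strand rows of mt-Nd2 and mt-Nd4 fell, and no minus-strand row was called, although mt-Te was called higher without DON replicate 1 (log2 0.44, adjusted p = 0.025). Of 24 mitochondrial rows tested, 2 were lower and 0 higher at an adjusted p under 0.05 (edgeR's quasi-likelihood test, Benjamini-Hochberg over 4731 rows), where 6.32% of all rows were called, 3.68% as lower and 2.64% as higher. That share of the mitochondrial rows, 2 of 24, is near the background.

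The mt-Nd2 row measured 430, 506.5 and 392.2 CPM in Ctrl and 260.4, 309.3 and 385 CPM in DON. Every DON library lay below every Ctrl library, the nearest pair by a small gap. The log2 difference was -0.48 ± 0.12 (SE), with an adjusted p of 0.0127. The mt-Nd4 row measured 1843.9, 1656.1 and 1669 CPM in Ctrl and 1463.4, 1329.8 and 942 CPM in DON, again without overlap and with DON replicate 3 the lowest. Its log2 difference was -0.47 ± 0.11, with an adjusted p of 0.00895. Single libraries decide both calls: mt-Nd2 was not called without Ctrl replicate 2 (adjusted p = 0.124) or DON replicate 1 (0.0728), and mt-Nd4 was not called without Ctrl replicate 1 (0.0615) or DON replicate 3 (0.075), or with DESeq2 (0.0634).

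Of the 15 plus-strand rows tested, 14 had a log2 difference below 0, with a median of -0.47, against 0.01 over all rows tested. In 8 of them all DON libraries lay below all Ctrl libraries, where 12.9% of all rows did so (24.4% separated the groups in either direction). Besides mt-Nd2 and mt-Nd4 these were the rows of mt-Rnr2 at -0.90 ± 0.30, mt-Tt at -0.60 ± 0.23, mt-Ti at -0.53 ± 0.24, mt-Nd1 at -0.51 ± 0.21, mt-Tm at -0.50 ± 0.18 and mt-Cytb at -0.44 ± 0.22, none of which passed the test. The mt-Nd5 row, the most abundant of the plus strand, measured 2958.1, 3818 and 5063.2 CPM in Ctrl and 4250.3, 4400.1 and 3563.4 CPM in DON. Its DON libraries lay inside the wider Ctrl range, and the difference was 0.05 ± 0.14. Rows of the same strand may be parts of the same precursor RNA and were measured in the same libraries. Counts of such rows, here and in the other comparisons, are therefore not counts of independent measurements.

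The 9 minus-strand rows had a median log2 difference of 0.05, 6 of them above 0, and in none did the groups separate. At an unadjusted p under 0.05 in edgeR there was 1 minus-strand row, mt-Te, and 7 plus-strand rows, where 19.4% of all rows passed, and DESeq2 and limma voom called 0 minus-strand rows. The mt-Nd6 row measured 6302.9, 7032 and 7215.9 CPM in Ctrl and 5907.5, 9012.8 and 7886.1 CPM in DON. The DON libraries spanned those of Ctrl on both sides, and the log2 difference was 0.15 ± 0.12 with an adjusted p of 0.55. The mt-Te row measured 846, 1102.5 and 1216.6 CPM in Ctrl and 983.1, 1604.3 and 1260.3 CPM in DON, with the groups overlapping. It differed by 0.28 ± 0.13 (adjusted p = 0.234) and the mt-Ts1 row by 0.12 ± 0.19 (adjusted p = 0.791). Whether plus-strand and minus-strand rows differ in their response was not tested.

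**Figure D3:**
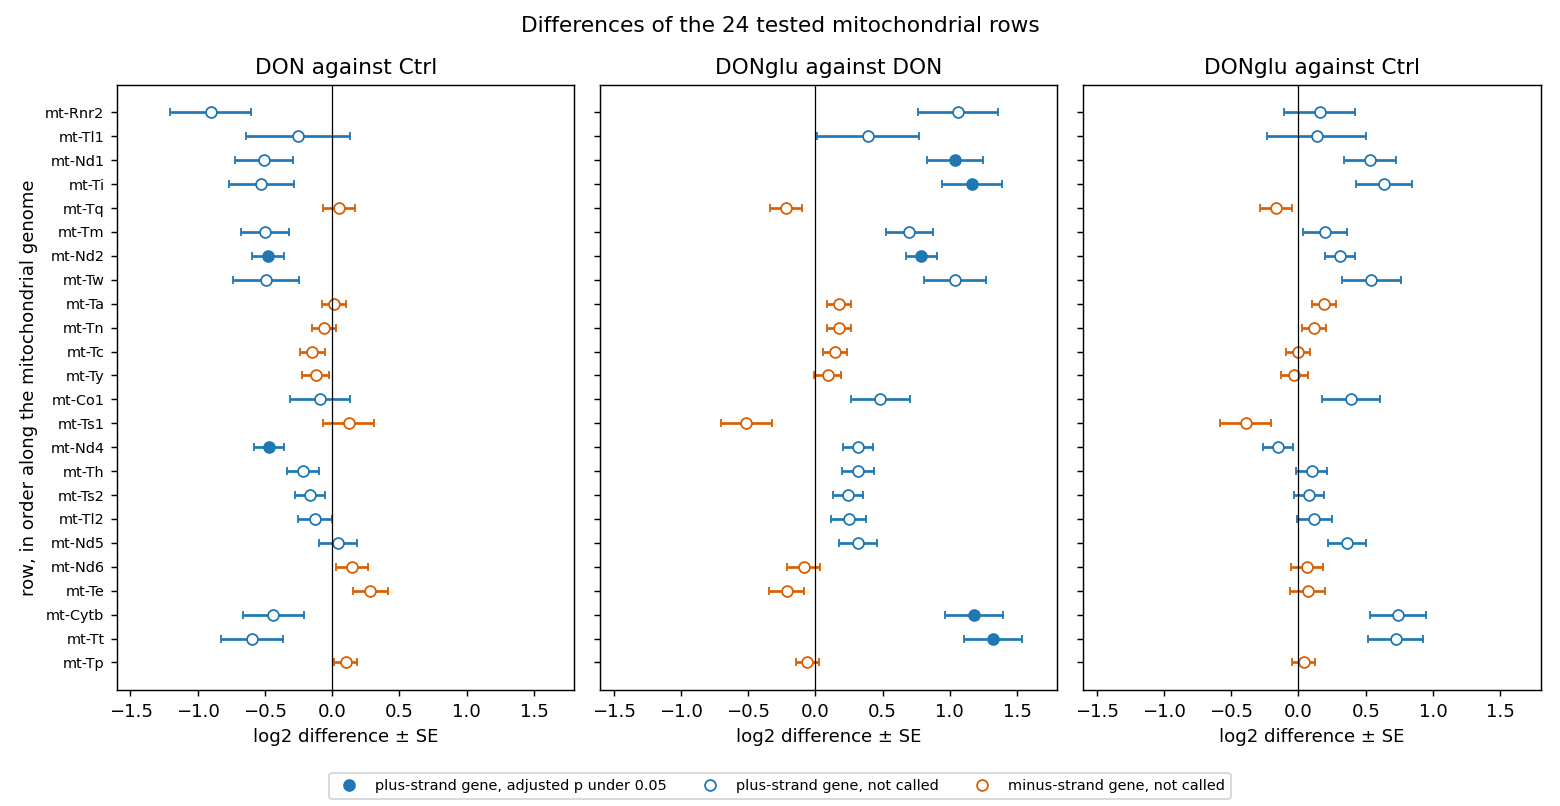
Log2 difference of each of the 24 tested rows in the 3 comparisons, with its standard error, blue for plus-strand and orange for minus-strand rows, filled where the adjusted p was under 0.05. Plus-strand rows lie mostly below 0 in DON against Ctrl (14 of 15) and above 0 in DONglu against DON (15 of 15), and minus-strand rows lie on both sides.

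The second comparison asks what added glutamate did under DON, and here the mitochondrial rows made up most of the calls. In DONglu against DON, 5 of 24 tested mitochondrial rows rose and 0 fell, in a table where 7 of 4731 rows were called, 0.148%, with 0.106% higher and 0.0423% lower. All 5 are plus-strand rows, those of mt-Nd2, mt-Tt, mt-Cytb, mt-Ti and mt-Nd1, and they were the only rows called higher. The remaining 2 calls, H2-T24 and Gm20481, are nuclear and were lower. This comparison shares its DON libraries with the previous one, so a low value in DON moves both, and the directions are not independent.

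The mt-Nd2 row had the smallest p of all rows tested. To the DON values given above it adds 492.8, 594.7 and 560.9 CPM in DONglu, all above the highest DON library at 385. The log2 difference was 0.79 ± 0.12 (SE), a 1.73-fold rise, with an adjusted p of 0.00202. Its call held in every alternative run, with log2 differences of 0.66 to 0.95 when single libraries were left out.

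The mt-Tt row, opposite to the threonine tRNA, measured 56.1, 72.7 and 60.6 CPM in DON and 95.7, 231.5 and 144.9 CPM in DONglu. Its log2 difference was 1.32 ± 0.22, the largest of the mitochondrial rows, with an adjusted p of 0.00506. The mt-Cytb row next to it measured 197.5, 221.1 and 168.2 CPM in DON and 273.5, 713 and 335.6 CPM in DONglu. In both rows the groups did not overlap, and DONglu replicate 2 stood far above the other DONglu libraries. The mt-Cytb difference was 1.18 ± 0.22, with an adjusted p of 0.0154.

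The mt-Ti row, opposite to the isoleucine tRNA, measured 25.4, 26.3 and 17.4 CPM in DON and 52, 67 and 34.4 CPM in DONglu. The mt-Nd1 row, whose gene lies just before mt-Ti and encodes a complex I subunit, measured 101.8, 111.3 and 57.6 CPM in DON and 143.2, 265.7 and 144 CPM in DONglu. DON replicate 3 was the lowest library and DONglu replicate 2 the highest in both rows, and the groups did not overlap. The log2 differences were 1.16 ± 0.22 for mt-Ti (adjusted p = 0.0235) and 1.04 ± 0.20 for mt-Nd1 (adjusted p = 0.0258).

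Apart from mt-Nd2, these calls rest on few libraries and on the test. The mt-Tt and mt-Cytb rows adjoin, as do mt-Ti and mt-Nd1, so the rows of a pair may not be independent measurements. Without DONglu replicate 2 only mt-Nd2 was called (log2 0.73, adjusted p = 0.0322), while mt-Tt stood at 0.92 (0.0684), mt-Cytb at 0.63 (0.0769), mt-Ti at 0.92 (0.302) and mt-Nd1 at 0.67 (0.357). Without DON replicate 3 mt-Nd2 was again the 1 call. DESeq2 called mt-Nd2 alone, and limma voom called mt-Nd2 and mt-Tt.

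**Figure D4:**
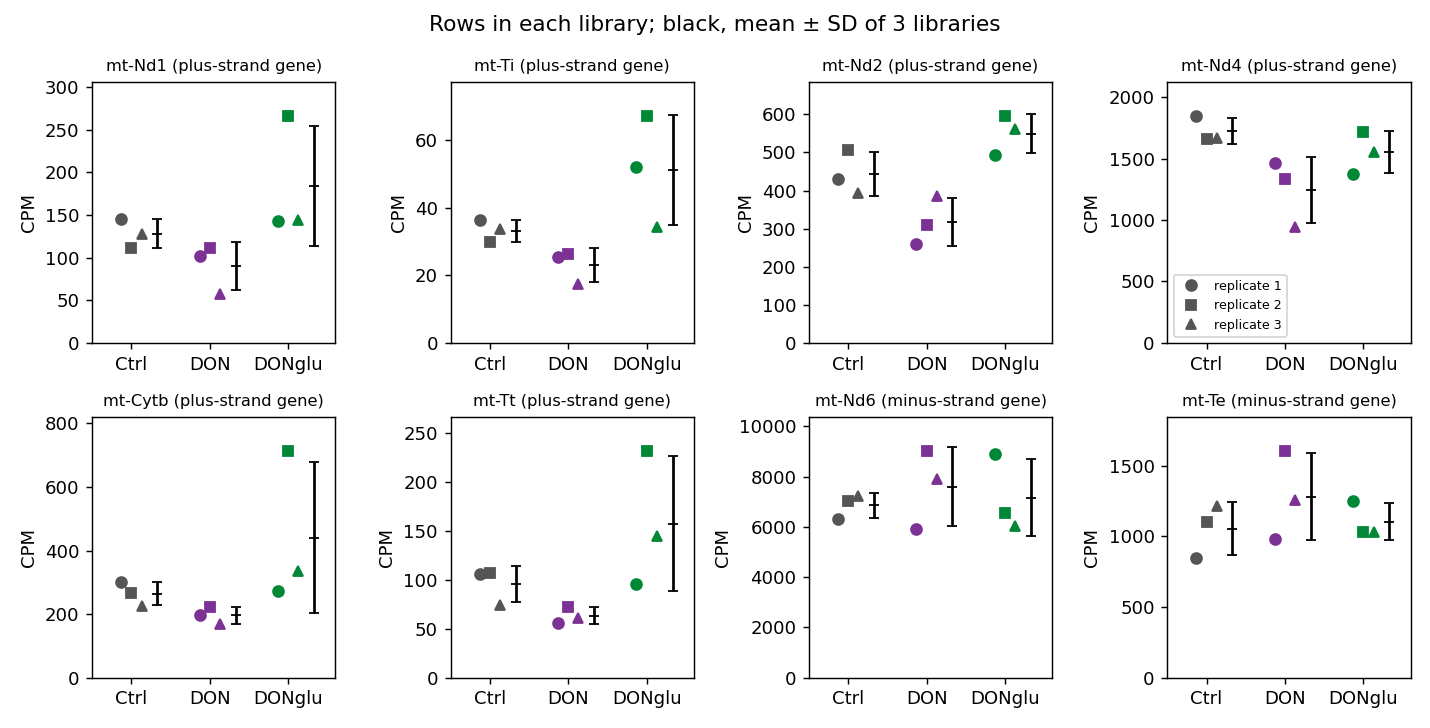
CPM in each of the 9 libraries for rows named in the text, by group, with black bars for the mean and SD of 3 libraries and every axis starting at 0. In the mt-Tt, mt-Cytb, mt-Ti and mt-Nd1 panels DONglu replicate 2 is the highest point, and in the mt-Nd2 panel the DONglu libraries lie between 492.8 and 594.7.

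All 15 plus-strand rows tested had a log2 difference above 0 in DONglu against DON, with a median of 0.70 against 0 over all rows tested, and the 15 stayed above 0 in every alternative run. In 8 rows all DONglu libraries lay above all DON libraries, where 5.39% of all rows did so and 11.5% separated the groups in either direction. These were the 5 called rows and mt-Rnr2 at 1.06 ± 0.30 (adjusted p = 0.344), mt-Tw at 1.04 ± 0.23 (0.0883) and mt-Tm at 0.70 ± 0.17 (0.182). The more abundant rows mt-Nd4, mt-Nd5, mt-Th, mt-Ts2 and mt-Tl2 had differences between 0.24 and 0.32, and none passed the test. The mt-Co1 row stood at 0.48 ± 0.22 (adjusted p = 0.711) and mt-Tl1 at 0.39 ± 0.38 (0.903). The rows called in this comparison lie in 2 arcs of the genome, from mt-Nd1 to mt-Nd2 and from mt-Cytb to mt-Tt. Both arcs are outside the stretch copied on chromosome 1. Less similar nuclear copies exist for mt-Nd2 (Gm13339, 96.7% identical over 49.1% of the gene) and mt-Cytb (Gm11410, 92.9% over 99.8%). The rows of these copies held at most 1 and 0 counts in any library.

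Among minus-strand rows the values lay on both sides of 0, with 0 called, 4 of 9 above 0 and a median of -0.06. At an unadjusted p under 0.05 in edgeR there was 1 of 9, against 13 of the 15 plus-strand rows and 6.72% of all rows. DESeq2 and limma voom called 0 minus-strand rows. Because the plus-strand rows may not be independent of each other, their 13 of 15 cannot be weighed against the share over all rows. The mt-Nd6 row measured 8888.8, 6549.9 and 6022 CPM in DONglu, all inside the span of the DON libraries, and its log2 difference was -0.09 ± 0.12 (adjusted p = 0.93). The mt-Ts1 row measured 714.3, 1516.1 and 1672 CPM in DONglu against 1868.9, 2117.7 and 1573.3 CPM in DON. DONglu replicate 1 was the lowest of all 9 libraries in that row, and the difference of -0.51 ± 0.19 did not pass the test (adjusted p = 0.576), but was called when low rows were kept in the fit (adjusted p = 4.62e-05). The mt-Tp row, which adjoins mt-Tt on the other strand, differed by -0.06 ± 0.09 (adjusted p = 0.942).

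The third comparison sets cells given both agents against untreated cells. In DONglu against Ctrl, 0 of 24 mitochondrial rows were called by edgeR, where 3.23% of all rows were, and DESeq2 and limma voom called 0 as well. At an unadjusted p under 0.05 there were 9 of 24, 7 plus-strand and 2 minus-strand, where 16% of all rows passed. The nearest to the threshold were mt-Cytb at 0.74 ± 0.21 and mt-Tt at 0.72 ± 0.20, both with an adjusted p of 0.051, and both were called when DONglu replicate 1 was left out (adjusted p = 0.000919 and 0.000485). Ctrl libraries measured 301.3, 266.2 and 226.6 CPM for mt-Cytb and 105.6, 106.8 and 74.2 CPM for mt-Tt. The lowest DONglu library lay inside the Ctrl range in both rows, and without DONglu replicate 2 the differences were 0.20 (adjusted p = 0.564) and 0.32 (0.459).

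Over the 15 plus-strand rows, 14 lay above 0 with a median of 0.31 against 0 over all rows tested, and without DONglu replicate 2 it was 11 rows with a median of 0.08. For mt-Nd2 the values side by side were -0.48 for DON against Ctrl, 0.79 for DONglu against DON and 0.31 for DONglu against Ctrl (adjusted p = 0.147). For mt-Nd4 they were -0.47, 0.32 and -0.15 (adjusted p = 0.551). The minus-strand rows had a median of 0.04. Among them 1 row, mt-Ta, separated the groups at 0.19 ± 0.09, as did 21% of all rows in either direction, without passing the test (adjusted p = 0.306).

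Nuclear genes that make, process or use mitochondrial RNA were read in the same way, through rows named for other genes. Each row used had exactly 1 coding gene across from it, whose exons it overlapped for 50 bp or more. The overlap ran from 54 bp for Trap1 (Dnase1 row) to 4590 bp for Mrps25 (Nr2c2 row). It was 68 bp for Ddit3 (Mars row), 82 bp for Atf5 (Nup62 row) and 95 bp for Top1mt (Gm15945 row). Counts are those of the row, and the share from wrong-strand reads of its own gene was not measured. Where a gene is said to rise or fall, its row did, and the change cannot be assigned to that gene alone. These genes were fitted apart, with p-values adjusted over the 2444 such genes tested, and the lists were chosen with earlier results known. In DON against Ctrl, 11.6% of these genes were called, 5.11% as higher and 6.46% as lower. Of 10 tested genes of mitochondrial DNA transcription and replication, 2 rose and 0 fell: Top1mt, the mitochondrial topoisomerase, by 0.66 ± 0.12 (adjusted p = 0.000478) and Primpol, which reprimes stalled replication, by 0.37 ± 0.09 (adjusted p = 0.00507). Of 13 tested genes of RNA processing, modification and decay, 1 rose, Trnt1, which adds CCA to tRNA ends, by 0.25 ± 0.08 (adjusted p = 0.0482), a call lost in 9 of 17 alternatives (adjusted p up to 0.201). Supv3l1, the helicase that acts with Pnpt1 in degrading antisense RNA, differed by 0.10 ± 0.14 (adjusted p = 0.709). Pnpt1 was not among the genes that could be read in this way.

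None of 6 tested mitochondrial tRNA synthetases was called by edgeR. Of 15 genes listed for sensing of mitochondrial double-stranded RNA, 4 were tested, Adar, Bak1, Irf3 and Tlr3. Not all 4 are sensors themselves, and none was called by edgeR. At an unadjusted p under 0.05 there were 0 of the synthetases and 2 of these 4 genes, where 23.9% of genes read in this way passed. Of 11 nuclear subunits of oxidative phosphorylation, 0 rose and 4 fell. They were Ndufb2 of complex I at -0.41 ± 0.09 (adjusted p = 0.00241), Cox4i1 of cytochrome c oxidase at -0.42 ± 0.09 (0.00252), and the ATP synthase subunits Atp5l at -0.77 ± 0.17 (0.00329) and Atp5o. The Cox4i1 and Atp5o calls were lost without 1 library (adjusted p up to 0.0536 and 0.121), and in 1 and 5 of 17 alternatives. Of 14 mitochondrial ribosomal proteins, Mrpl13 rose by 0.92 ± 0.15 (adjusted p = 5.35e-05), and Mrpl14, Mrpl44, Mrps11 and Mrps7 fell. Each call of these 4 was lost without 1 library (adjusted p up to 0.0801, 0.172, 0.29 and 0.136). In all, these calls were lost in 2, 11, 9 and 3 of 17 alternatives. Of 5 tested stress response genes, Aldh1l2, Atf5 and Ddit3 rose. Rows under the list genes' own names, which in this reading hold RNA opposite to those genes, were tested in the main fit. Of these, 1 of 6 synthetase rows fell, 1 of 11 oxidative phosphorylation rows rose and 1 fell, and 2 of 8 stress rows rose. No row of the other lists was called, where 6.32% of all rows were.

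In DONglu against DON, 0 of the 63 tested genes of these 7 lists were called by edgeR, DESeq2 or limma voom, where edgeR called 0.0409% of such genes. At an unadjusted p under 0.05 there were 6 of 63, where 7.12% of such genes passed. Supv3l1 there differed by -0.39 ± 0.15 (adjusted p = 0.591). In DONglu against Ctrl, 5.36% of such genes were called, 2.62% as higher and 2.74% as lower, and 7 of the 63 list genes were. Top1mt (0.46 ± 0.13, adjusted p = 0.0274), Trub2, which makes pseudouridine in mitochondrial RNA (0.45 ± 0.11, 0.0121), Mrpl13, Aldh1l2, Atf5 and Ddit3 rose, and Atp5l (-0.63 ± 0.17, 0.0241) fell. The Top1mt, Trub2 and Atp5l calls were lost without 1 library (adjusted p up to 0.139, 0.0646 and 0.148). In all, they were lost in 6, 3 and 5 of 17 alternatives.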

How the data were processed

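Whole-number counts per gene were deposited by the authors as 1 table of 9 libraries. Alignment and counting used STAR and HTSeq on mm10, per the submitters' processing notes, and versions and the strand setting are not given in the sources used here. The 37 rows, the comparison of strands and the nuclear gene lists were chosen with earlier results of these data known. Rows were filtered with filterByExpr, scaled by TMM and fitted together for the 3 groups with edgeR 4.0.16 (R 4.3.3) by the quasi-likelihood test, leaving 6 residual degrees of freedom, with Benjamini-Hochberg adjustment over 4731 rows. A row was called at an adjusted p under 0.05. Named rows are mitochondrial rows with a mean of at least 10 counts or a call, and from each list the 3 genes with the smallest p in a comparison. Atp5o, Mrpl44 and Mrps11 were added after their values were seen, to complete the counts of called genes. Strand, length and sequence came from GENCODE M21 (53274 rows matched). Nuclear copies were sought with blastn 2.17.0 (at least 90% identity over 50 bases). Sums by strand and CPM per kilobase were described without a test. Alternatives were DESeq2 1.42.0, limma 3.58.1 (voom), other scalings, no filter, only the groups compared, a replicate block and leaving out each library. Totals of 1132822 to 1342286 counts limit precision for low rows. The code was tested on simulated data.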

Additional observations from a re-analysis of the deposited data

How the results depend on the processing

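The mitochondrial rows called in DON against Ctrl numbered 2, and 5 with no filter on low counts, 1 with DESeq2, 4 with only the 2 groups fitted and 1 to 4 when single libraries were left out. All these calls were lower and on the plus strand, except that without DON replicate 1 the minus-strand row mt-Te was called higher (log2 0.44, adjusted p = 0.025). In DONglu against DON there were 5, and 8 with no filter (1 of them, mt-Ts1, lower), 1 with DESeq2, 2 with voom, 2 with only the 2 groups fitted and 1 to 6 without single libraries. In DONglu against Ctrl there were 0, and 2 with library totals, 5 with no filter (1 of them, mt-Ts1, lower) and 0 to 3 without single libraries. Called nuclear list genes numbered 15, 0 and 7 in the 3 comparisons, and 8 to 15, 0 and 4 to 8 without single libraries, alternatives added after seeing the data.

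The replicate numbers were not treated as pairs: libraries with the same number correlated between -0.194 and 0.155, 1 of 9 pairs was over 0.1, and 0 libraries matched their own number best in both other groups. With the replicate block, 1 mitochondrial row (mt-Tt) was called in DONglu against Ctrl, and the count was 5 in DONglu against DON.

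With library totals, calls over all rows split into 180 higher and 126 lower in DON against Ctrl (main 125 and 174) and 104 and 50 in DONglu against Ctrl (main 67 and 86).

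Without mt-Nd6 the log2 ratio of minus-strand to plus-strand counts was -0.59 in Ctrl, -0.36 in DON and -0.91 in DONglu. With protein rows only it was 0.038, 0.30 and -0.18. With the highest row of each run, added after seeing the data, it was 1.04 in Ctrl and 1.18 in DON. The minus-strand share in Ctrl was 1.22% with counts outside the mitochondrial rows as denominator and 1.24% with the TMM-adjusted total.

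Differences that changed sign were small and uncalled. With no filter mt-Ta in DON against Ctrl was -0.01. In DONglu against Ctrl, mt-Tc was 0.05 and mt-Ty 0.021 with library totals, and mt-Tc was 0.002 with scaling that leaves out the mitochondrial rows and with only the 2 groups fitted. Without single libraries, differences in DON against Ctrl ranged from -0.13 to 0.17 for mt-Tq, -0.10 to 0.083 for mt-Ta, -0.31 to 0.18 for mt-Co1, -0.042 to 0.31 for mt-Ts1, -0.23 to 0.027 for mt-Tl2 and -0.12 to 0.26 for mt-Nd5. In DONglu against DON they ranged from -0.28 to 0.054 for mt-Nd6 and -0.12 to 0.029 for mt-Tp. In DONglu against Ctrl they ranged from -0.16 to 0.35 for mt-Rnr2, -0.079 to 0.31 for mt-Tl1, -0.059 to 0.053 for mt-Tc, -0.10 to 0.041 for mt-Ty, -0.001 to 0.20 for mt-Ts2, -0.13 to 0.18 for mt-Nd6, -0.068 to 0.18 for mt-Te and -0.023 to 0.13 for mt-Tp. The cause of these changes was not tested.

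With 3 libraries a group and totals of 1132822 to 1342286 counts, rows such as mt-Rnr2 and mt-Tl1 rest on few counts, and the 13 untested rows allow no comparison.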
